A study of Mus musculus with 10 samples.

Results

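The Myc, Max and Mxd network is a small family of transcription factors that share a basic helix-loop-helix zipper and compete for 1 partner, Max. Its 10 members here were Myc, Mycn, Mycl, Max, Mxi1, Mxd1, Mxd3, Mxd4, Mnt and Mga, chosen by name, with no threshold on their values but with earlier results of these data known. Each was read by 1 probe set that named that gene alone, among 19938 genes measured in all. The data come from 10 mouse forebrains of a CD1/NMRI mixed background at E12.5, with 1 array per embryo. The 5 transgenic embryos (dtg in the sample titles) carried a constitutively active FoxO3 allele driven by CaMKIIa, a promoter restricted to the forebrain, and 5 embryos (stg) were controls. The labels do not spell out either abbreviation, do not say whether the controls carry part of the transgene, and do not assign embryos to the 2 dams they came from, so litter could not be modelled. RNA came from part of each forebrain, after most of the thalamus had been cut away.

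Myc proteins bind DNA as pairs with Max at E-boxes and recruit coactivators that raise transcription of genes for growth, ribosome assembly and division. Mxd proteins, Mxi1 and Mnt also pair with Max, but bring the Sin3 corepressor and histone deacetylases to the same sites. Mga pairs with Max inside a Polycomb complex that keeps germ-line genes silent. In the developing brain Mycn is the Myc gene of dividing neural progenitors. FoxO factors are known to oppose Myc, and Mxi1 is known as a FoxO3 target in other cells.

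Short stretches of promoter are shown for the members in which a Myc-Max or FOXO binding motif was found, because these are the letters that Myc-Max pairs and FoxO factors are known to bind. RefSeq windows of GRCm38.p6, from 250 bases before to 50 bases after a start, were held for 9 of the 10 members in 11 windows; Myc is named only. Both strands were searched for the E-box CACGTG and for the FOXO element GTAAACA, which do not overlap in these windows. Each stretch is written 5′ to 3′ on the gene's strand, with the motif in capitals.
Mxi1, FOXO element, chr19:53329445-53329497, plus strand: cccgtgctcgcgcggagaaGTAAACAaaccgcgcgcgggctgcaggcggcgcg
Max, E-box, chr12:76962219-76962278, minus strand: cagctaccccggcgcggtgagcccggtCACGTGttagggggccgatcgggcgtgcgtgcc
Mnt, E-box, chr11:74830774-74830833, plus strand: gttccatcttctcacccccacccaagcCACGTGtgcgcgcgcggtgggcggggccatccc
Mxd4, E-box, chr5:34187897-34187956, minus strand: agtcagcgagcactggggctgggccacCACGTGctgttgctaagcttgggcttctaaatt
The Mxi1 element began 231 bases before the start of 1 of the 3 Mxi1 windows, and the single Mxi1 probe set cannot tell the starts apart. The Max E-box began 3 bases before the start and spanned it, that of Mnt began 123 and that of Mxd4 219 bases before it. Of all 32851 windows, 7.15% held the E-box and 3.65% the FOXO element. A match describes these letters only and says nothing about binding.

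Arrays resembled each other, with correlations between 0.98 and 0.996 over all genes and medians from 5.36 to 5.39 on the log2 scale. The number of arrays limits the precision. Of 11 forebrain marker genes 10 were measured, Emx1 and the Dlx genes among them, with list means from 7.14 to 7.39 in transgenic and from 6.70 to 7.72 in control embryos. Control embryo 5 stood apart: its pan-neuronal mean was 7.35 against 8.23 to 8.53 in the other controls, its mesenchyme mean was 7.90 against 6.12 to 6.87, and its forebrain mean of 6.70 was the lowest. Thalamus markers were read in every embryo, at list means of 6.72 to 7.49 in transgenic and 5.89 to 6.97 in control embryos. Members are therefore also described beside the neuron, division and thalamus lists. For some of the single genes named below that depend on control embryo 5, the value without it is added.

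None of the 10 members passed the test over all genes (limma, Benjamini-Hochberg adjusted p below 0.05), where 21 genes, or 0.105%, did. Myc and Mycn read lower in transgenic forebrains and Mycl and Mxi1 higher, by 0.16 to 0.38 on the log2 scale, while the other 6 members differed by 0.056 or less in size. By the unadjusted limma p, 4 members lay below 0.05, against 7.58% of all genes. In 0 of the 10 members did the 2 groups stand fully apart, against 1.6% of all genes.

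**Figure D1:**
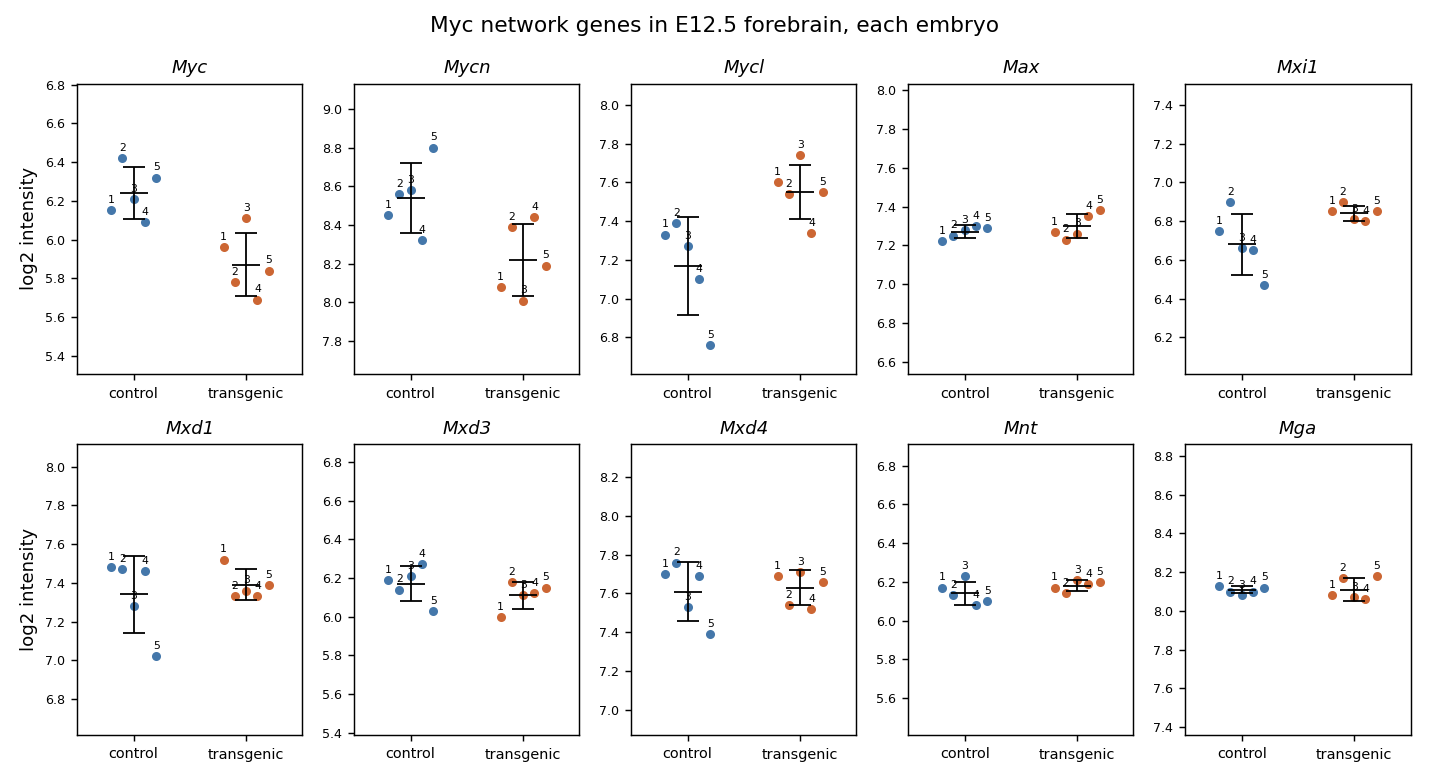
Log2 intensity of each member in 5 control (blue) and 5 transgenic (orange) embryos, numbered as in the titles; black bars give the mean and SD. Each vertical axis spans the same log2 range. Means of Myc and Mycn are lower and those of Mycl and Mxi1 higher in transgenic embryos; the groups of each overlap, and all but 1 of the transgenic Mxi1 points lie within the control range. Of the controls, control embryo 5 is the lowest for Mycl, Mxi1, Mxd1, Mxd3 and Mxd4.

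Among the activators, Myc, the founding oncogene of the family, had the smallest p of the network. By its mean over the 10 arrays it was also the dimmest member, at percentile 55.6 of all genes, beside 91.3 for Mycn. Its log2 intensity was 5.96, 5.78, 6.11, 5.69 and 5.84 in transgenic embryos 1 to 5 and 6.15, 6.42, 6.21, 6.09 and 6.32 in controls 1 to 5. In 4 of 5 transgenic embryos Myc was below every control, and transgenic embryo 3 lay just above the lowest control. The mean was 5.87 ± 0.16 (SD, n = 5) against 6.24 ± 0.13, a log2 difference of -0.36 ± 0.088 (SE), or 77.8% of the control level. With a limma adjusted p of 0.206 it ranked 139th of all genes, and the 95% interval of the difference was -0.55 to -0.17. In bulk tissue fewer cells that express a gene and less RNA per cell cannot be told apart.

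Mycn, the progenitor paralogue, read 8.08, 8.39, 8.01, 8.44 and 8.19 in transgenic embryos and 8.45, 8.56, 8.58, 8.32 and 8.80 in controls. Transgenic embryos 1, 3 and 5 were below all controls, while embryos 2 and 4 lay inside the control range. The log2 difference was -0.32 ± 0.10 (SE, n = 5 per group; limma adjusted p = 0.466), with a 95% interval from -0.55 to -0.094. Without control embryo 5, which had the highest Mycn, it was -0.26.

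Mycl, the other paralogue, was higher. It read 7.60, 7.54, 7.74, 7.34 and 7.55 in transgenic embryos and 7.33, 7.39, 7.27, 7.10 and 6.76 in controls. In 4 of 5 transgenic embryos Mycl exceeded every control, and embryo 4 was just under the highest control. The log2 difference was 0.38 ± 0.11 (SE, n = 5 per group), or 1.30-fold, with a 95% interval from 0.13 to 0.63 and a limma adjusted p of 0.397. Control embryo 5 had the lowest Mycl, and without it the difference was 0.28. For a single value, the exact two-sided permutation test over 252 assignments gave p = 0.0159 for Myc, 0.0317 for Mycn and 0.0159 for Mycl; all 10 members were run, and these p are not adjusted.

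Max, the shared partner, read from 7.23 to 7.38 in transgenic and from 7.22 to 7.30 in control embryos. Its log2 difference was 0.030 ± 0.049 (SE, n = 5 per group; limma adjusted p = 0.929), and the 95% interval ran from -0.077 to 0.14. Its spread was smaller than that of any Myc gene, with an SD of 0.062 in transgenic and 0.033 in control embryos, and the groups overlapped.

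Among the repressors only Mxi1 had a 95% interval that lay to 1 side of zero, from 0.0020 to 0.32. It read 6.85, 6.90, 6.81, 6.80 and 6.85 in transgenic embryos and 6.75, 6.90, 6.66, 6.65 and 6.47 in controls. The transgenic embryos were close together (SD 0.039) and exceeded 4 of the 5 controls; only transgenic embryo 2 also exceeded control embryo 2, by less than the 2 decimals printed. The log2 difference was 0.16 ± 0.072 (SE, n = 5 per group), with a limma adjusted p of 0.649 and an exact permutation p of 0.0476. Without control embryo 5 it was 0.11, and without control embryo 2 it was 0.21. The FOXO element shown above was in 1 of the 3 Mxi1 windows and in 1 of all 11 member windows, beside 3.65% of all windows. A link between this match and the Mxi1 values was not tested.

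The Mxd genes proper, which are usually switched on as cells leave the cycle, differed by less than the spread between embryos. Mxd1 read 7.52, 7.33, 7.36, 7.33 and 7.39 in transgenic embryos and 7.48, 7.47, 7.28, 7.46 and 7.02 in controls, with 1 low control. Its difference was 0.044 (95% interval -0.15 to 0.24), and -0.036 without control embryo 5. Mxd4 ranged from 7.52 to 7.71 in transgenic and from 7.39 to 7.76 in control embryos, with a difference of 0.012 (95% interval -0.15 to 0.18) whose sign changed in 9 of 20 alternatives, median centring of the arrays among them. Mxd3, the family member tied to S phase, ranged from 6.0 to 6.18 and from 6.03 to 6.27, with a difference of -0.056 (95% interval -0.18 to 0.072). The limma adjusted p was 0.945 for Mxd1, 0.984 for Mxd4 and 0.878 for Mxd3.

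Mnt, the broadly expressed antagonist of Myc, read between 6.14 and 6.21 in transgenic and between 6.08 and 6.23 in control embryos. Its log2 difference was 0.040 ± 0.048 (SE, n = 5 per group; limma adjusted p = 0.899), with a 95% interval from -0.064 to 0.14. Mga, the large scaffold that carries both a T-box and a Max-binding domain, had the smallest spread among controls, with an SD of 0.019. Mga ranged from 8.06 to 8.18 and from 8.08 to 8.13, and the difference of 0.0042 (95% interval -0.10 to 0.11; limma adjusted p = 0.990) changed sign with median centring. The 3 members with an E-box in the stretches above, Max, Mnt and Mxd4, were among those that differed least. So were Mxd1, Mxd3 and Mga, whose windows held no E-box, and Myc had no window. A link between the E-box and these values was not tested.

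**Figure D2:**
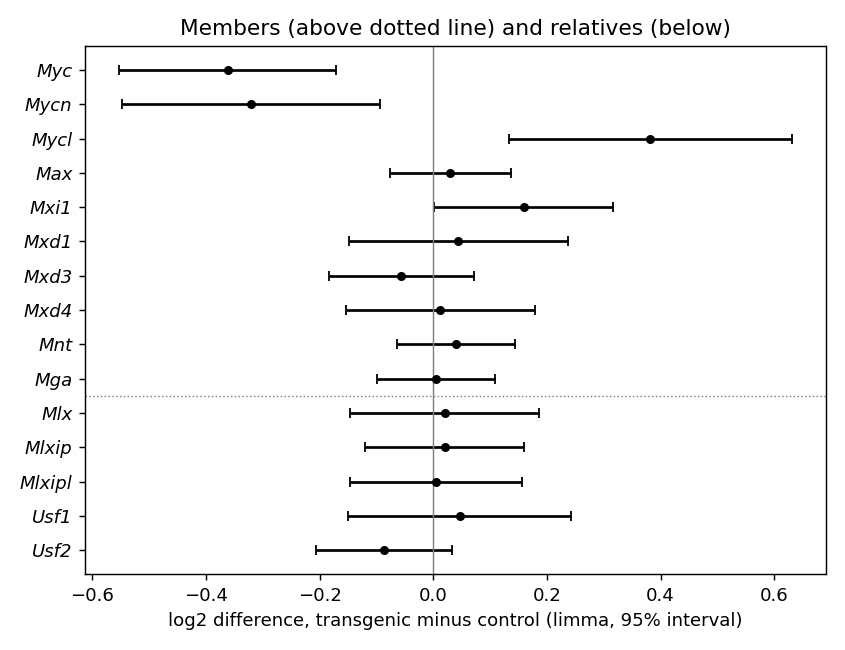
Log2 difference, transgenic minus control, with its 95% interval from limma for the 10 members and 5 relatives. The intervals of Myc, Mycn, Mycl and Mxi1 lie to 1 side of zero before adjustment; those of the other 6 members and all 5 relatives cross it.

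The nearest relatives of the network differed by 0.087 or less in size. Mlx, which takes the place of Max for the glucose-sensing factors, differed by 0.020, its partner Mlxip by 0.020 and Mlxipl, also called ChREBP, by 0.0053. The E-box factors Usf1 and Usf2 differed by 0.047 and -0.087. With control embryo 5 left out the values were -0.028 for Mlx, 0.0093 for Mlxip, -0.056 for Mlxipl and -0.014 for Usf1. Their 95% intervals reached at most 0.24 in size, and the limma adjusted p ran from 0.783 for Usf2 to 0.993 for Mlxipl.

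Within the transgenic group the 3 Myc genes did not vary alike, a pattern noticed after the values were seen. From low to high, Myc and Mycl both ordered the embryos 4, 2, 5, 1, 3, and so did Mxd4. Mycn ordered them 3, 1, 5, 2, 4, the reverse. The controls did not repeat it: control embryo 4 was lowest for both Myc and Mycn. In transgenic embryos the pan-neuronal list mean ran 4, 2, 5, 3, 1 and the thalamus list mean 4, 5, 2, 1, 3. Both orders are close to that of Myc and Mycl, so the order is not particular to the network. In controls both lists were lowest in embryo 5, as Mycl was, and highest in embryo 4, where Myc was lowest. What sets these orders was not tested.

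Mycn and the division genes ordered the embryos of each group nearly alike, apart from 1 exchange of neighbours in each. The mean of 22 G2/M genes was 7.88 and 7.99 in transgenic embryos 1 and 3, where Mycn was lowest, and 8.45 in control embryo 5, where it was highest. In the other 7 embryos the G2/M mean ranged from 8.21 to 8.37. All 22 G2/M genes read lower in transgenic embryos by their means, beside 51.9% of all genes, with a median log2 difference of -0.18. At an unadjusted limma p below 0.05 there were 10 of 22, beside 7.58% of all genes, and 0 passed the test over all genes. The genes of this list are not separate observations. The thalamus mean was highest in transgenic embryos 1 and 3, at 7.40 and 7.49.

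**Figure D3:**
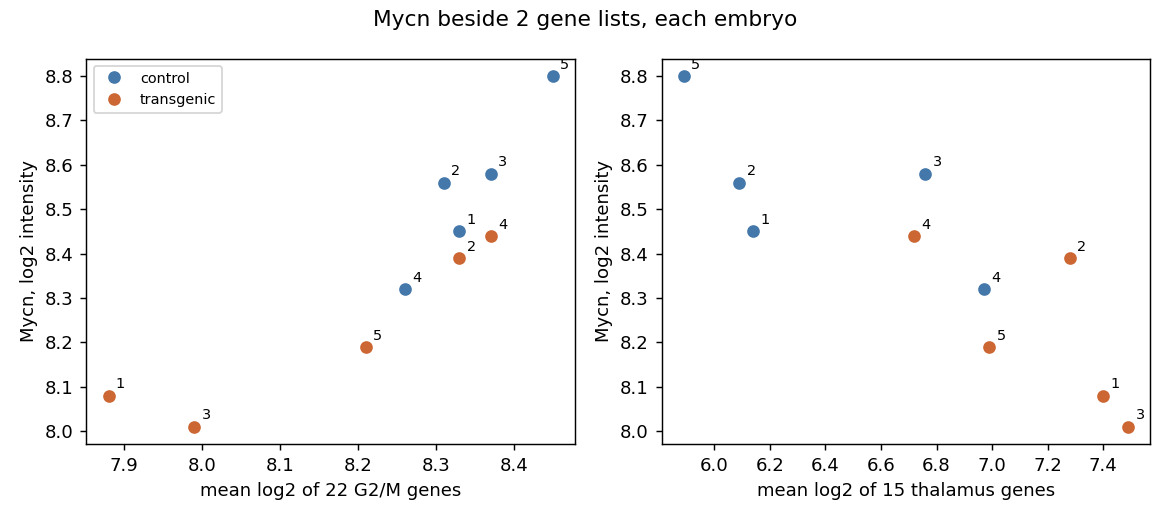
Log2 intensity of Mycn against the mean log2 of 22 G2/M genes (left) and of 15 thalamus genes (right) in each of the 10 embryos, numbered as in the titles. Transgenic embryos 1 and 3 have the lowest Mycn and G2/M values and the highest thalamus values, and control embryo 5 the opposite.

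A list mean was also added to the model as a covariate. The Myc difference was -0.38 with the pan-neuronal list, -0.46 with the G2/M list and -0.37 with the thalamus list, against -0.36 without. The Mycn difference was -0.20, -0.14 and -0.065 in the same fits, against -0.32. Mycl read 0.25, 0.25 and 0.22 against 0.38, and Mxi1 0.10, 0.14 and 0.15 against 0.16. Each of these lists had different group means, so a covariate can also take up a difference of the group itself. For the pan-neuronal list that difference rested largely on control embryo 5, at 0.30 with it and 0.085 without it. No member passed in any of the covariate fits (smallest limma adjusted p = 0.152, for Myc). With the thalamus list the SE was 0.14 for Myc and 0.13 for Mycn, and the limma adjusted p was 0.9999 for both. The difference between the Myc and Mycn responses was not tested.

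**Figure D4:**
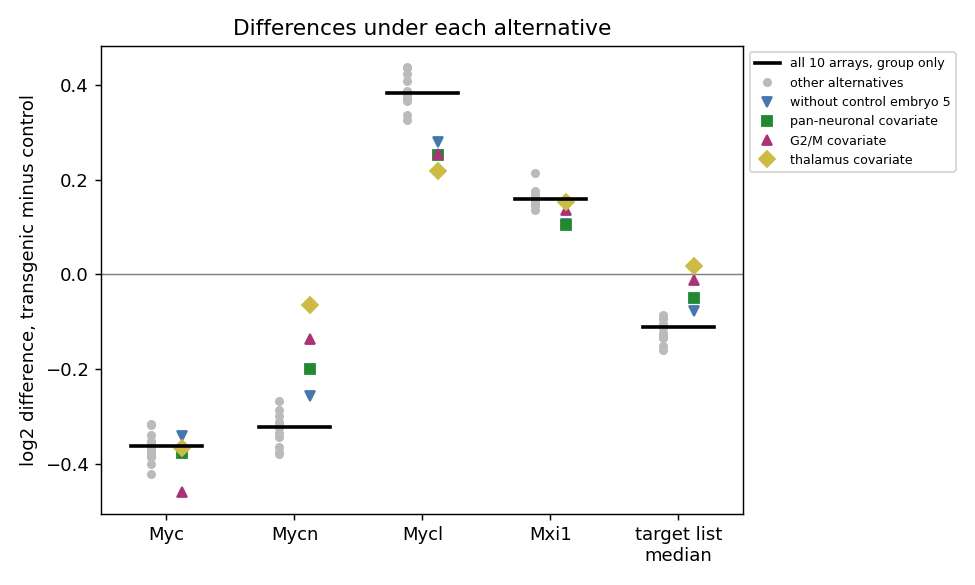
Log2 difference, transgenic minus control, of 4 members and of the median over 44 Myc-activated genes, under all 10 arrays with group only (black line) and under the alternatives. The Myc value stays between -0.46 and -0.32, whereas Mycn shrinks to -0.065 and the target median turns to 0.019 with the thalamus covariate. Standard errors are not drawn.

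The genes whose pattern over the 10 arrays was most like that of a member were found among 9969 genes at or above the median intensity, as a description; the arrays share their group difference and tissue content. For Myc the closest were Neurod6, a transcription factor of young cortical neurons (Pearson r = 0.94, n = 10 arrays), Sorl1 (0.93), Carmil1 (0.91) and Tshz1 (0.91). For Mycn they were the Notch effector Hey1 (0.97), the condensin subunit Ncaph (0.96), the secreted Wnt modulator Sfrp1 (0.96) and Rexo2 (0.96). For Mycl they were Rere (0.97), L3mbtl3 (0.96), the sterol transporter Abcg1 (0.95) and Pik3ca (0.95). Without control embryo 5 these 12 correlations were between 0.88 and 0.96.

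Genes that Myc is known to activate read slightly lower as a group. Of 44 measured targets 43 were lower in transgenic embryos, against 51.9% of all genes, and 0 passed the test over all genes (limma). At an unadjusted p below 0.05 there were 4 of 44, beside 7.58% of all genes. Their median log2 difference was -0.11, beside -0.0038 over all genes. The list holds many ribosome assembly genes, which vary together across embryos, so that its members are not separate observations.

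All 20 targets of the nucleolus and ribosome assembly were lower, with a median of -0.13, from -0.28 for the pseudouridine synthase gene Dkc1 to -0.052 for Rrp12. All 11 metabolic and transport genes were lower, with a median of -0.11, from -0.29 for the mitochondrial serine enzyme gene Shmt2 to -0.033 for the transferrin receptor Tfrc. The 3 mitochondrial chaperone and genome genes had a median of -0.18 and included Tfam, which packages mitochondrial DNA, at -0.22. The 3 translation factors had a median of -0.072 and the 2 RNA polymerase subunits, Polr1b and Polr3d, read -0.16 and -0.060. Of 5 cell-cycle and telomerase genes 4 were lower, with Ccnd2, cyclin D2, at -0.20, and E2f1 was the single higher target, at 0.17. Leaving out control embryo 5 gave -0.20 for Shmt2, -0.14 for Ccnd2, -0.013 for Rrp12, 0.0049 for Tfrc, -0.077 for Polr1b and -0.026 for Polr3d. Limma adjusted p was 0.596 for Shmt2, 0.608 for Tfam and 0.630 for Ccnd2.

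**Figure D5:**
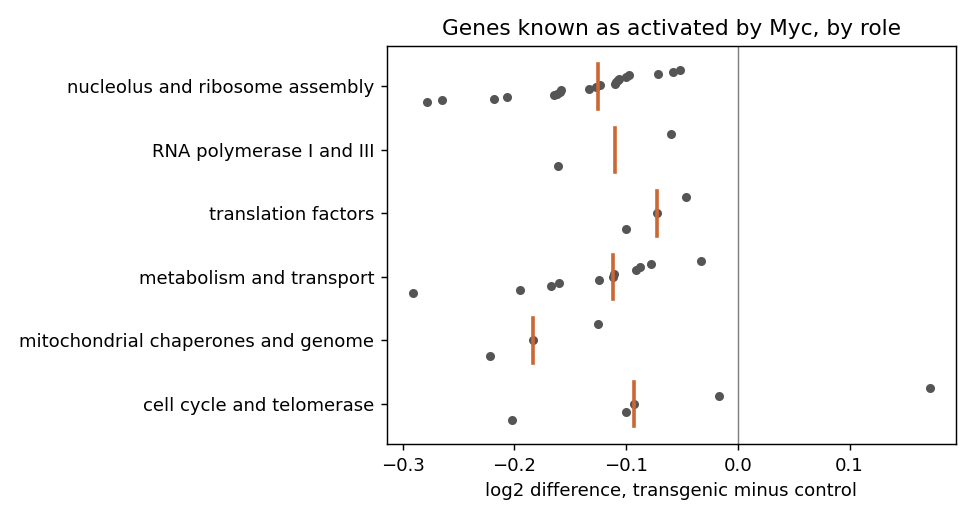
Log2 difference, transgenic minus control, of 44 genes known as activated by Myc, grouped by role; each point is a gene and each orange line a group median. Points lie between -0.29 and 0.17, and 43 of 44 lie below zero.

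By embryo the mean of the targets was 8.29, 8.47, 8.30, 8.58 and 8.48 in transgenic embryos and 8.46, 8.49, 8.55, 8.51 and 8.74 in controls. Only transgenic embryos 1 and 3 lay below all controls, the same embryos that were lowest in Mycn and in G2/M genes. These were the embryos with the highest Myc of their group, at 5.96 and 6.11. The median of the targets was -0.076 without control embryo 5, with 41 of 44 lower. With the G2/M covariate it was -0.012 and 27 of 44 were lower, and with the thalamus covariate it was 0.019 and 17 of 44 were lower. RefSeq windows were held for 35 of the 44 targets, 48 windows in all. Of these, 13, or 27.1%, held the E-box, beside 7.15% of all windows, and they belonged to 10 genes. The FOXO element was in 0 of them, beside 3.65% of all windows. The list was made of known Myc targets, so its E-boxes are not a result of the values measured here.

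Of 10 genes linked to repression by Myc through Miz1, 4 were higher and 6 lower, beside 51.9% lower over all genes. Their median was -0.073, within a range from -0.42 to 0.19, and 0 passed the test. The inhibitor gene Cdkn2c read -0.41 (limma adjusted p = 0.297), Nfatc4 -0.33 and Ndrg1 -0.16. The Nfatc4 value was -0.16 without control embryo 5, where it was highest.

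The protein partners showed small differences, and their counts stand beside the 51.9% of all genes that were lower. Of 13 Myc coactivator genes 9 were lower and 4 higher, with a median of -0.046; the chromatin subunits Actl6a and Ruvbl2 read -0.17 and -0.12, and the scaffold Trrap 0.071. Of 14 Sin3 and histone deacetylase genes, the corepressors that Mxd proteins recruit, 11 were lower and 3 higher, with a median of -0.027. Among them Sap30 read -0.26, Rbbp7 -0.19 (-0.12 without control embryo 5) and Hdac1 -0.12. Of 9 genes of the Polycomb complex that holds Mga and Max 6 were lower, with Rybp at -0.19, Tfdp1 at -0.14 and Ring1 at 0.13, and the median was -0.051. None of these genes passed, and the smallest limma adjusted p was 0.582, for Sap30.

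Of 13 genes for enzymes and factors that control how long Myc protein lasts 9 were lower and 4 higher, beside 51.9% lower over all genes, with a median of -0.020. Skp2 and Aurka, which are also division genes, read -0.25 and -0.22, and the ubiquitin ligase gene Fbxw7, which marks Myc for destruction, read -0.18 (limma adjusted p = 0.627, 0.649 and 0.742). The Fbxw7 value was -0.27 without control embryo 5, where it was lowest.

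Of 22 genes known to act upstream of Myc 9 were higher and 13 lower, beside 51.9% lower over all genes. Their median was -0.029, within a range from -0.37 to 1.74. At an unadjusted limma p below 0.05 there were 7 of 22, beside 7.58% of all genes, and 0 passed the test over all genes. The genes of this list are not separate observations either, and Tcf7l2 is also in the thalamus list, where every gene was higher. The RNA-binding protein gene Lin28b, which blocks let-7 and so spares Mycn, read 7.14, 7.26, 7.27, 7.26 and 7.36 in transgenic embryos and 6.79, 6.64, 6.55, 7.05 and 5.98 in controls. Every transgenic embryo exceeded every control (1.6% of all genes had groups that stood apart), and the log2 difference was 0.65 ± 0.15 (SE, n = 5 per group; limma adjusted p = 0.199). Without control embryo 5, the lowest, it was 0.50. The hedgehog effector gene Gli1 read 0.31 higher (limma adjusted p = 0.365), and its groups also stood apart. Foxo3 read 0.34 higher, from probes that need not cover the transgene.

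Other tissue markers that could move with these values were as follows. Their counts stand beside the 51.9% of all genes that were lower. Of 23 pan-neuronal genes 22 were higher, with list means of 8.23 to 8.78 in transgenic and 7.35 to 8.53 in control embryos; without control embryo 5 their mean difference was 0.085 in place of 0.30. All 15 thalamus genes were higher, with a median of 0.74, among them Olig3 at 2.26, Lhx5 at 0.98 and Foxp2 at 0.74. At an unadjusted limma p below 0.05 there were 10 of 15, beside 7.58% of all genes. The groups of Lhx5 and Foxp2 stood fully apart, as did those of 1.6% of all genes. The smallest limma adjusted p was 0.0846, for Foxp2. Of 13 radial glia and progenitor genes 7 were lower and 6 higher, with list means of 8.90 to 9.02 and 8.96 to 9.02, Id4 at -0.33 and Pax6 at 0.22. Of 10 forebrain genes 7 were lower and 3 higher, with Emx1 at -0.37, Lhx2 at -0.28 and Otx1 at 0.19. These were -0.23, -0.16 and 0.28 without control embryo 5. The 12 mesenchyme genes had list means of 6.41 to 7.01 in transgenic and 6.12 to 7.90 in control embryos, the 9 endothelial genes 6.39 to 6.70 and 6.37 to 6.89, the 7 erythroid genes 6.81 to 7.73 and 6.82 to 8.19, and the 8 microglia genes 5.01 to 5.15 and 4.86 to 5.15. No gene of these lists passed, and apart from the covariate fits their part in the network's values was not tested.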

How the data were processed

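Each of 10 forebrains had its own array. The deposited values are log2 intensities of 35556 probe sets, which the authors made with Affymetrix Expression Console according to the submitters' processing notes; version, algorithm and settings are not given in the sources used here. Near-equal array medians show that the values were normalized between arrays, and none was added. Probe sets naming 1 gene (21789) were kept, 1621 naming several and 12146 naming none were left out, and symbols were updated by gene identifier to RefSeq, GRCm38.p6. Of 999 genes with several probe sets the one with the highest mean was used. Groups came from the titles.

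The main test was limma 3.58.1 under R 4.3.3, with group as the only term, empirical Bayes variances, two-sided p-values and Benjamini-Hochberg adjustment over 19938 genes at a threshold of 0.05. On simulated data for this comparison, 200 of 19938 genes were changed in each of 3 runs. Of changes of 1, 97.7% were recovered, and of changes of 0.5, 76.7%, with 31 false calls. The simulated noise was independent between genes. Changes below 0.5 were not simulated, so these shares do not describe members that differed by 0.16 to 0.38. In the data 21 genes passed, far fewer than the 200 changed here, which makes the adjusted threshold stricter in the data.

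Members and lists were chosen with earlier results of these data known. Lists are described by counts and medians, without a test. Named were all members and relatives, of each other list up to 3 genes with the smallest p, and the 4 genes most like each of the 3 members with the smallest p. Other targets and the order of embryos were chosen after values were seen, as was the grouping of targets by role. Same-numbered embryos deviated with correlations from -0.25 to 0.24, so the numbers were not used as pairs. The orientation of the promoter windows was checked on 1843 overlapping pairs of opposite strand, all of which were reverse complements.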

Additional observations from a re-analysis of the deposited data

Results flagged for a closer look

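Of 62 groups of 5 embryos examined (each member, relative and list mean in each group), 1 held an embryo far from the rest by Dixon's ratio, fewer than the 1 in 20 that chance alone flags. It was the pan-neuronal list mean of control embryo 5, at 7.35 against 8.23 to 8.53 in the other 4 controls (ratio 0.745, critical value 0.71).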

How the results depend on the processing

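No member passed in any of the 21 alternatives run, and Myc, Mycn, Mycl, Mxi1, Max, Mxd3 and Mnt kept their sign in all 20 that give a value per gene. Mxd1 turned sign in 4, Mxd4 in 9 and Mga in 4. The number of genes past the threshold in limma was 21, and leaving out 1 embryo gave as few as 7 (transgenic embryo 1 left out) and as many as 58 (control embryo 4 left out). It was 39 with array weights, 97 with the pan-neuronal covariate, 55 at a threshold of 0.1, and 0 with the thalamus covariate, where 617 genes had an unadjusted p below 0.05. With the replicate number as a block it was 2; in 0 of 5 cases was the control of the same number the one most alike. The median of the Myc-activated targets ran from -0.16 to -0.076 when 1 embryo was left out, an alternative added after the data were seen. The cause of these differences was not tested.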
